A study of Mus musculus with 12 samples.

Results

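The 10 genes described here act on the phosphate that bone mineral is built from and on the pyrophosphate that holds its crystals back: *Phex*, *Fgf23*, *Fam20c*, *Alpl*, *Enpp1*, *Ank*, *Phospho1*, *Smpd3*, *Slc20a1* and *Slc20a2*. They are the 10 of the 47069 genes of a count matrix that carry these symbols. The match by symbol uses no measured value, but the symbols were chosen with earlier results of these data known. RNA was extracted from tibia shafts, flushed of marrow, of 12 male mice aged 8 weeks, and 1 library was sequenced per mouse. The series asked how the loss of sclerostin, the osteocyte protein encoded by *Sost* that holds back Wnt signalling, alters bone in a mouse with osteogenesis imperfecta.

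The comparisons were between 3 groups of 4 mice. Jrt;Sost-het mice carried *Col1a1*Jrt/+, a dominant splice-site allele of the main collagen chain gene of bone, and the study's text gives them 1 disrupted *Sost* allele, which the sample labels leave out. Jrt;Sost-ko mice carried the same *Col1a1* allele and were Sost-/-. WT mice were wild type at both loci. All mice were of mixed FVB/C57BL6 background. The Jrt groups came from a single colony and WT mice from a parallel one, so colony and genotype cannot be told apart in comparisons with WT. Both alleles were germline, so the loss of *Sost* was not limited to bone. Mice are numbered 1 to 4 within a group only to name them.

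Mineral forms when calcium and phosphate precipitate within matrix vesicles, small membrane bodies that bud from osteoblasts, and then spreads along collagen fibrils. Pyrophosphate blocks this growth and is made outside the cell by ENPP1 from nucleotides, exported under control of ANK, and cleaved to phosphate by tissue-nonspecific alkaline phosphatase, the product of *Alpl*. Osteocytes, the cells buried in the matrix, set the phosphate level of the whole body by secreting FGF23, which makes the kidney lose phosphate, and loss of PHEX raises FGF23 by a route that is not fully known.

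Between 24366061 and 44418863 reads per mouse were counted on genes. *Sost* averaged 40.0 CPM (counts per 1000000 counted reads) in Jrt;Sost-het, 0.672 CPM in Jrt;Sost-ko and 53.3 CPM in WT mice, with no overlap between Jrt;Sost-ko and either other group. The 12 osteoblast markers used (among them *Bglap*, *Ibsp* and *Col1a1*) summed to between 27321 and 80235 CPM over the 12 mice, and all 12 had over 3 counts in every mouse. The 8 osteocyte markers summed to between 458 and 1329 CPM. Markers of other cells were present as well: 7 erythroid markers summed to between 15224 and 29766 CPM, 10 neutrophil markers to between 16250 and 30036 CPM, and 16 skeletal muscle markers to between 29.8 and 29276 CPM. Epidermal markers reached 651 CPM in WT mice and at most 5.64 CPM in the Jrt groups, with the high values in WT mice 3 and 4.

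Because most of the 10 genes varied together over the mice, the DNA just before the transcription start was read for 2 motifs of bone transcription factors. RefSeq (GRCm38.p6) gave 10 start sites for 8 of the 10 genes, and the 250 bases before each were searched on both strands. The RUNX motif TGTGGT (reverse complement ACCACA), the core bound by RUNX2, was found in 14% of 32851 windows of that length over all genes. The TCF/LEF motif CTTTGA (reverse complement TCAAAG), the core of Wnt-responsive sites, was found in 13.8% of them. The windows shown are those of *Phex*, *Enpp1* and *Phospho1*, which varied together, of *Slc20a1*, which did not pass a test of varying with them, and of *Fgf23*, the scarcest transcript. Capitals mark matches, and each window reads in the direction of its gene and ends at the base before the RefSeq start. They lie at *Phex* chrX:157415287-157415536 (minus strand), *Enpp1* chr10:24712160-24712409 (minus strand), *Phospho1* chr11:95824250-95824499 (plus strand), *Slc20a1* chr2:129198523-129198772 (plus strand) and *Fgf23* chr6:127072652-127072901 (plus strand).
Phex: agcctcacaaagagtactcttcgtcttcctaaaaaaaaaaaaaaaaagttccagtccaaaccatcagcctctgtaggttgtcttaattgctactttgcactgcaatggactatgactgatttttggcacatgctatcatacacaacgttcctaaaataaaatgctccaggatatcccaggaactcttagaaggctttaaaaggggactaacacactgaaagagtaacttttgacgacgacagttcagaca
Enpp1: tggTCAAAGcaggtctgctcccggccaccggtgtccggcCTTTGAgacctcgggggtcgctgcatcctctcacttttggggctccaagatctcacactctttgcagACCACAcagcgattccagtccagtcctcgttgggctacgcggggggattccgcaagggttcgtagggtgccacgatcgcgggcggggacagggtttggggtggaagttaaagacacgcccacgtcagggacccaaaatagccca
Phospho1: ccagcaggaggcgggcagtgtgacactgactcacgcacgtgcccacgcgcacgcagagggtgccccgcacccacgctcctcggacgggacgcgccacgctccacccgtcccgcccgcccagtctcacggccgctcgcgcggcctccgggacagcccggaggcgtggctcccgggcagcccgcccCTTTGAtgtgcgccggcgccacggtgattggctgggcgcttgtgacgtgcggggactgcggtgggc
Slc20a1: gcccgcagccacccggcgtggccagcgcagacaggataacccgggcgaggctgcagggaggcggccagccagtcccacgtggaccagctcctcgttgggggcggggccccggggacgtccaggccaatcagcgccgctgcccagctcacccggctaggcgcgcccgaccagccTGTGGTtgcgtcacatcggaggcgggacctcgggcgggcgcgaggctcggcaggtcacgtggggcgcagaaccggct
Fgf23: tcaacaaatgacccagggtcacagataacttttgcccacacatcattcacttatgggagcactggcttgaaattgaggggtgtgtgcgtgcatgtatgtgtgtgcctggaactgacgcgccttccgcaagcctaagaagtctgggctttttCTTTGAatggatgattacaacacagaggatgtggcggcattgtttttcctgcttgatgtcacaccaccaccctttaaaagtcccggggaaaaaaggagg

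*Enpp1* held 1 RUNX match, beginning 144 bases before the start, and 2 TCF/LEF matches, at 247 and 211 bases. *Phospho1* held a TCF/LEF match at 66 bases and *Fgf23* one at 99 bases, while *Slc20a1* held a RUNX match at 77 bases. No match lay in the *Phex* window, of which 39.2% of bases were G or C, nor in the windows of *Alpl*, *Ank* or *Fam20c*. *Smpd3* and *Slc20a2* had no window. Of the 10 windows 2 held a RUNX and 3 a TCF/LEF match. A match is only a stretch of letters, and 10 windows are too few to set against the shares over all genes.

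Levels were compared between genes per kilobase (kb) of exon. *Alpl* had the highest mean, 63.1 ± 17.1 CPM per kb (SD, n = 12 mice), above 96.1% of the 17178 expressed genes with an exon length. *Ank* followed with 37.6, *Smpd3* with 23.8, *Slc20a1* with 23.6, *Phex* with 19.2, *Phospho1* with 16.7 and *Slc20a2* with 12.8 CPM per kb. *Fam20c* with 5.25 and *Enpp1* with 4.71 CPM per kb lay near the middle of all genes, above 54.0% and 51.5% of them. *Fgf23* stood apart at 0.220 ± 0.104 CPM per kb, above 7.56%. Neighbours in this order mostly overlapped: *Smpd3* exceeded *Slc20a1* in 5 of 12 mice, *Slc20a1* exceeded *Phex* in 7 and *Phex* exceeded *Phospho1* in 7. The ranges over mice did not overlap between *Slc20a2* and *Fam20c* or between *Enpp1* and *Fgf23*. *Alpl* lay above *Ank* in 11 of 12 mice, the exception being WT mouse 1, in which the ratio was 0.998.

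**Figure D1:**
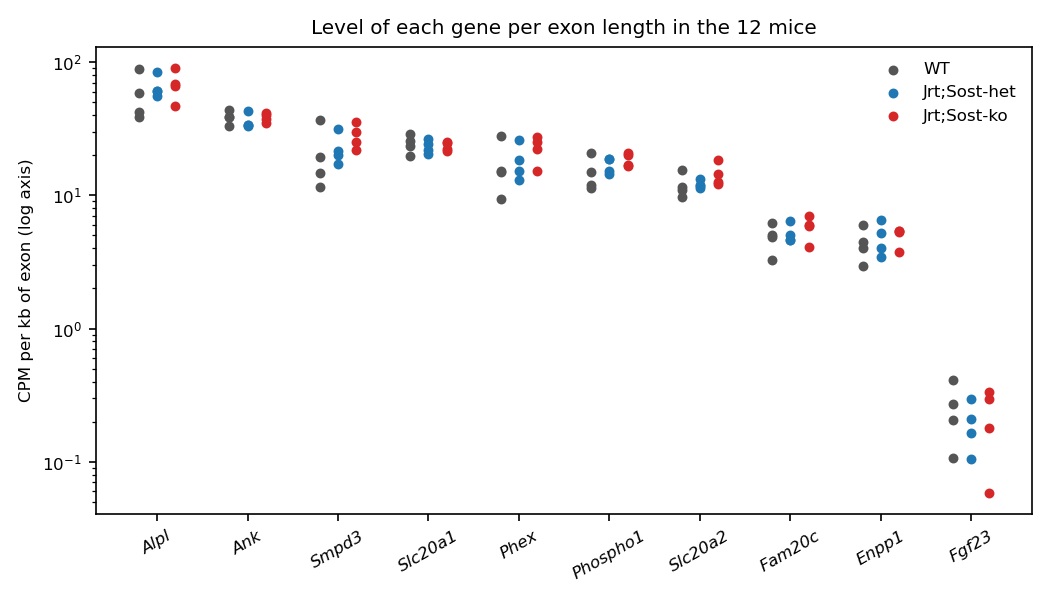
Level of each gene in CPM per kb of exon on a log axis, 1 point per mouse, ordered by the mean over 12 mice and coloured by group. *Alpl* is highest with a mean of 63.1 and *Fgf23* lowest with 0.220 CPM per kb, and the groups overlap for every gene.

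For none of the 10 genes did a difference between a pair of groups pass edgeR's quasi-likelihood test with Benjamini-Hochberg adjustment over all genes tested. All 10 passed the filter on low counts in each comparison. The count with an adjusted p under 0.05 was 0 of 10 in edgeR, DESeq2 and limma-voom alike, where edgeR called between 0% and 0.00597% of all genes. DESeq2 gave *Fgf23* no adjusted p in Jrt;Sost-ko relative to Jrt;Sost-het. The count with an unadjusted p under 0.05 was also 0 of 10 in each comparison in edgeR and DESeq2, and in limma-voom it was 3 in Jrt;Sost-ko relative to WT, beside 1540 of 17155 genes, and 0 in the others. The groups overlapped for every gene. In bulk RNA, fewer cells of a type and less RNA per cell cannot be told apart.

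**Figure D2:**
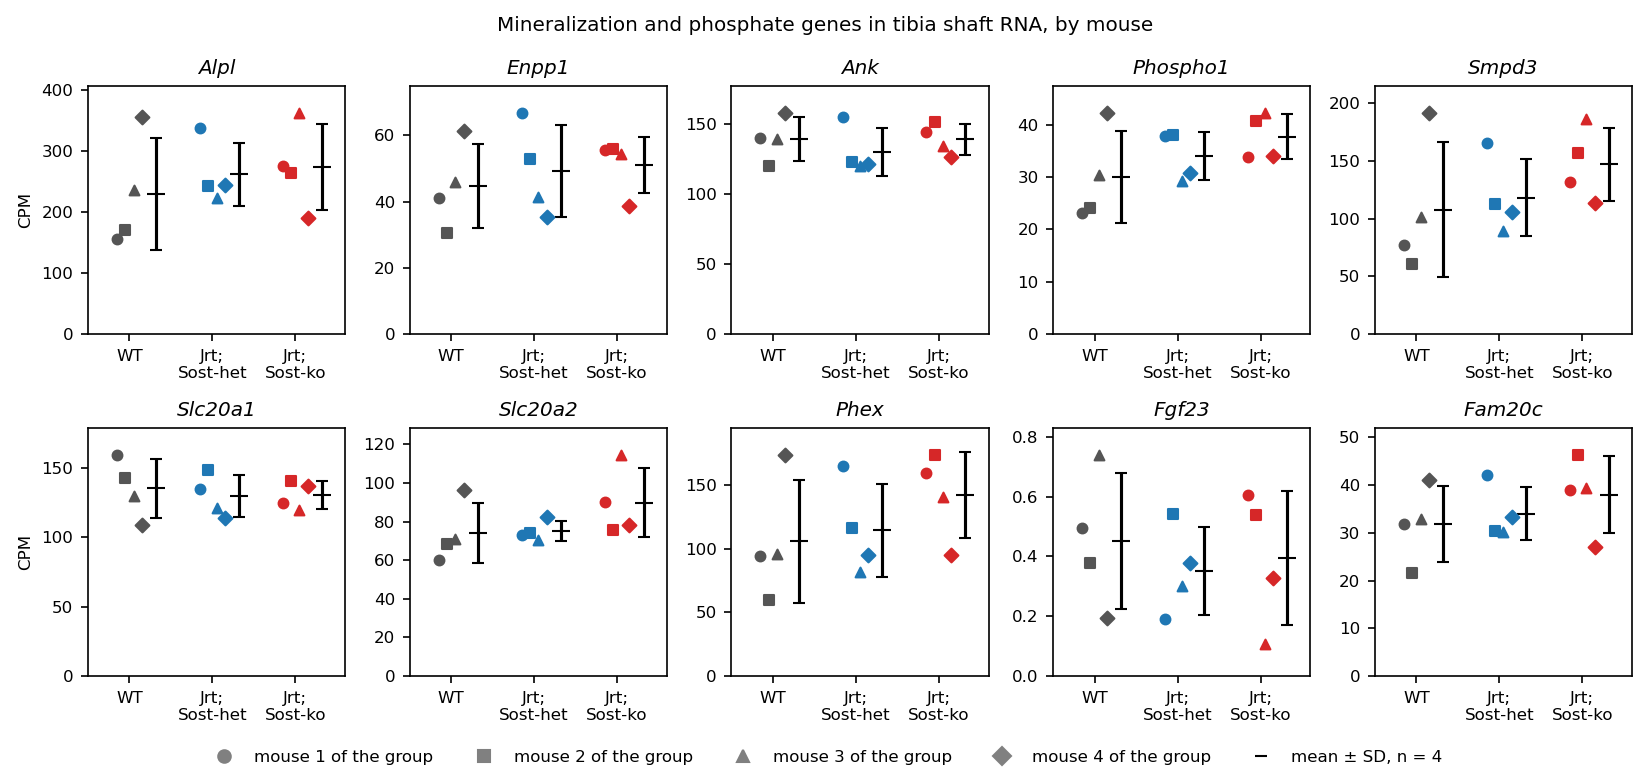
CPM of the 10 genes in each mouse, with linear axes from 0, marker shapes for mice 1 to 4 of a group and bars for the group mean ± SD (n = 4). The 3 groups overlap in every panel. WT mice span the whole range for *Smpd3*, from 60.8 to 192 CPM, while *Slc20a1* stays between 109 and 160 CPM over all 12 mice.

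*Phex* (chromosome X, 157162075 to 157415312, minus strand) encodes an endopeptidase on the surface of osteocytes and osteoblasts, whose loss causes X-linked hypophosphatemia. It had 165, 116, 81.9 and 94.96 CPM in Jrt;Sost-het mice 1 to 4, 159, 174, 141 and 95.1 CPM in Jrt;Sost-ko mice, and 94.4, 59.5, 96.2 and 174 CPM in WT mice. Jrt;Sost-ko mouse 4 lay among the lower Jrt;Sost-het mice, and WT mouse 4 was level with the highest Jrt;Sost-ko mouse. The log2 fold change of Jrt;Sost-ko relative to Jrt;Sost-het was 0.32 ± 0.24 (SE, 95% confidence interval -0.23 to 0.87, adjusted p = 0.901 in edgeR). Leaving out mouse 1, or mouse 3, of Jrt;Sost-het gave 0.54 and 0.18. Against WT it was 0.43 (-0.31 to 1.16) in Jrt;Sost-ko and 0.11 (-0.65 to 0.87) in Jrt;Sost-het.

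*Fgf23* (chromosome 6, 127072902 to 127081408, plus strand) was scarce, with 4 to 33 counts per mouse. Its levels were 0.189, 0.541, 0.300 and 0.377 CPM in Jrt;Sost-het, 0.605, 0.538, 0.106 and 0.328 CPM in Jrt;Sost-ko, and 0.495, 0.376, 0.740 and 0.194 CPM in WT mice. Each group held both low and high mice. The intervals were accordingly wide: the log2 fold change of Jrt;Sost-ko relative to Jrt;Sost-het was 0.13 (95% confidence interval -1.05 to 1.32), an interval that includes both -1 and 1, so a change of that size was not detectable at this depth. Jrt;Sost-het against WT gave -0.37 (-1.40 to 0.67) and Jrt;Sost-ko against WT -0.23 (-1.47 to 1.02).

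*Fam20c* (chromosome 5, 138754514 to 138810077, plus strand) encodes the Golgi kinase that phosphorylates secreted proteins of the matrix and FGF23 itself. Its levels were 42.1, 30.4, 30.2 and 33.3 CPM in Jrt;Sost-het, 39.0, 46.4, 39.5 and 27.0 CPM in Jrt;Sost-ko, and 31.8, 21.6, 33.0 and 41.2 CPM in WT mice. Jrt;Sost-ko held both the highest mouse of all and one below every Jrt;Sost-het mouse. The log2 fold change was 0.16 (-0.22 to 0.55) for Jrt;Sost-ko relative to Jrt;Sost-het, 0.090 (-0.35 to 0.53) for Jrt;Sost-het against WT and 0.26 (-0.24 to 0.75) for Jrt;Sost-ko against WT.

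*Alpl* (chromosome 4, 137741733 to 137796384, minus strand) had 337, 242, 223 and 244 CPM in Jrt;Sost-het, 275, 264, 363 and 190 CPM in Jrt;Sost-ko, and 156, 170, 236 and 356 CPM in WT mice. Mouse 1 of Jrt;Sost-het, mouse 3 of Jrt;Sost-ko and mouse 4 of WT stood above the rest. The group means of 261 ± 51.2, 273 ± 70.7 and 229 ± 91.3 CPM (SD, n = 4) differed by less than any of these SDs. For Jrt;Sost-ko relative to Jrt;Sost-het the log2 fold change was 0.068 (-0.38 to 0.52, edgeR adjusted p = 0.961). It was 0.19 (-0.43 to 0.80) for Jrt;Sost-het against WT and 0.25 (-0.41 to 0.92) for Jrt;Sost-ko against WT.

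*Enpp1* (chromosome 10, 24637914 to 24712159, minus strand) had 66.9, 53.0, 41.5 and 35.3 CPM in Jrt;Sost-het, 55.5, 55.8, 54.3 and 38.6 CPM in Jrt;Sost-ko, and 41.2, 30.4, 46.0 and 61.2 CPM in WT mice. Every Jrt;Sost-ko mouse lay within the range of the Jrt;Sost-het mice. The log2 fold change between them was 0.058 (-0.40 to 0.51), and relative to WT it was 0.13 (-0.44 to 0.71) in Jrt;Sost-het and 0.19 (-0.29 to 0.68) in Jrt;Sost-ko. *Ank* (chromosome 15, 27466677 to 27594909, plus strand), the transporter that lets pyrophosphate reach the outside of the cell, was the steadiest of the 10. It had 155, 123, 120 and 121 CPM in Jrt;Sost-het, 144, 151, 134 and 126 CPM in Jrt;Sost-ko, and 140, 119, 139 and 158 CPM in WT mice. Its intervals were narrow: 0.099 (-0.12 to 0.32) for Jrt;Sost-ko relative to Jrt;Sost-het, -0.10 (-0.36 to 0.16) for Jrt;Sost-het against WT and -0.0013 (-0.23 to 0.22) for Jrt;Sost-ko against WT on the log2 scale.

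The balance of *Alpl* to the genes on the supply side of pyrophosphate was computed in each mouse from levels per kb. *Alpl* exceeded *Enpp1* by a ratio of 11.6 to 17.5 in Jrt;Sost-het, 12.05 to 16.98 in Jrt;Sost-ko and 9.64 to 14.8 in WT mice. The *Alpl* to *Ank* ratio was 1.66 to 1.94, 1.35 to 2.42 and 0.998 to 2.02 in the same order. Groups overlapped for both. The mean log2 *Alpl* to *Ank* ratio differed by -0.057 between the Jrt groups, by 0.35 between Jrt;Sost-het and WT and by 0.29 between Jrt;Sost-ko and WT, beside within-group SDs of 0.094 in Jrt;Sost-het, 0.36 in Jrt;Sost-ko and 0.43 in WT. The mean log2 *Alpl* to *Enpp1* ratio differed by -0.036 between the Jrt groups, by 0.11 between Jrt;Sost-het and WT and by 0.074 between Jrt;Sost-ko and WT, beside SDs of 0.23 to 0.28 within groups.

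Matrix vesicles draw phosphate from their own membrane lipids. *Smpd3* (chromosome 8, 106252548 to 106337988, minus strand) encodes a neutral sphingomyelinase that releases phosphocholine, from which PHOSPHO1 cleaves phosphate. *Smpd3* had 166, 113, 89.7 and 106 CPM in Jrt;Sost-het, 132, 157, 187 and 114 CPM in Jrt;Sost-ko, and 77.1, 60.8, 102 and 192 CPM in WT mice. All 4 Jrt;Sost-ko mice were above the median Jrt;Sost-het mouse and above the median WT mouse, but 1 Jrt;Sost-het and 1 WT mouse reached their range. The log2 fold change was 0.32 ± 0.21 (SE, 95% confidence interval -0.15 to 0.79, edgeR adjusted p = 0.901) against Jrt;Sost-het and 0.45 (-0.34 to 1.24) against WT. The first was 0.52 without Jrt;Sost-het mouse 1, 0.20 without Jrt;Sost-het mouse 3 and 0.18 without Jrt;Sost-ko mouse 3, and the second 0.25 without WT mouse 2 and 0.88 without WT mouse 4. For Jrt;Sost-het against WT it was 0.13 (-0.68 to 0.94).

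*Phospho1* (chromosome 11, 95824499 to 95832140, plus strand) had 37.8, 38.1, 29.3 and 30.7 CPM in Jrt;Sost-het, 33.9, 40.6, 42.3 and 34.1 CPM in Jrt;Sost-ko, and 23.1, 24.2, 30.3 and 42.3 CPM in WT mice. Jrt;Sost-ko mice lay above 3 of the 4 WT mice, and WT mouse 4 was level with the highest of them. The log2 fold change was 0.16 (-0.11 to 0.42) against Jrt;Sost-het and 0.33 (-0.11 to 0.78) against WT, and 0.18 (-0.28 to 0.64) for Jrt;Sost-het against WT. In GENCODE M21, 10.4% of the 2029 bases of its exons belong to no other gene, since *Zfp652* on the same strand shares 89.6% and *Abi3* on the opposite strand 84.2%, so its count and its level per kb depend on how shared reads were assigned. *Phospho1* also lies between the altered loci, 871457 bp from *Col1a1* and 6130318 bp from *Sost*. Whether FVB and C57BL6 alleles of this stretch differed in level was not tested.

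The remaining pair are sodium-phosphate cotransporters of nearly all cells, PiT-1 (*Slc20a1*, chromosome 2, 129198764 to 129211616, plus strand) and PiT-2 (*Slc20a2*, chromosome 8, 22476788 to 22569612, plus strand). *Slc20a1* had 135, 149, 121 and 114 CPM in Jrt;Sost-het, 125, 141, 120 and 137 CPM in Jrt;Sost-ko, and 160, 143, 130 and 109 CPM in WT mice. The Jrt;Sost-ko values fell wholly inside the Jrt;Sost-het range, and the log2 fold change was 0.011 (-0.19 to 0.22). Relative to WT it was -0.061 (-0.34 to 0.22) in Jrt;Sost-het and -0.051 (-0.31 to 0.21) in Jrt;Sost-ko. *Slc20a2* had 73.1, 74.2, 70.6 and 82.4 CPM in Jrt;Sost-het, 90.4, 75.6, 115 and 78.0 CPM in Jrt;Sost-ko, and 60.1, 68.3, 71.1 and 96.2 CPM in WT mice. Jrt;Sost-ko mice 1 and 3 were above every Jrt;Sost-het mouse and the other two were not. Its log2 fold change of 0.26 ± 0.13 (SE, 95% confidence interval -0.034 to 0.56) had the smallest unadjusted p of the 10, 0.0763 in edgeR, with an adjusted p of 0.901, and was 0.12 without Jrt;Sost-ko mouse 3. Relative to WT it was 0.019 (-0.30 to 0.34) in Jrt;Sost-het and 0.28 (-0.13 to 0.69) in Jrt;Sost-ko. The ratio of *Slc20a1* to *Slc20a2* per kb ran from 1.54 to 2.23 in Jrt;Sost-het, 1.16 to 2.07 in Jrt;Sost-ko and 1.26 to 2.96 in WT mice.

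Taking the 10 genes as a list, all 10 had a log2 fold change above 0 in Jrt;Sost-ko relative to Jrt;Sost-het, the comparison within the Jrt colony. Among all 16739 genes tested 50.4% were above 0. The list ran from 0.011 (*Slc20a1*) to 0.32 (*Smpd3*), with a median of 0.14, and the median over all genes was 0.0013. Since most of these genes vary together over mice, the 10 signs are not 10 separate observations. With an adjusted p under 0.05, 0 of 10 were called, where 0.00597% of all genes were, and with an unadjusted p under 0.05, 0 of 10, where 5.02% were. Without Jrt;Sost-het mouse 1 the latter count was 3 of 10 (*Smpd3*, *Ank* and *Phex*), beside 1069 of 16992 genes, with a smallest adjusted p of 0.782 in edgeR. It was 1 of 10 (*Slc20a2*) without Jrt;Sost-ko mouse 2, beside 509 of 16934 genes, or mouse 4, beside 1121 of 16914. The same 1 of 10 was found with the muscle score as a covariate, beside 910 of 16739 genes. With no filter on low counts it was again 1 of 10, beside 1239 of 29174. Groups did not overlap for 0 of 10, where 1.64% of all genes were higher in Jrt;Sost-ko without overlap and 1.41% lower. Leaving out mouse 2 of Jrt;Sost-ko or mouse 3 of Jrt;Sost-het brought the median to 0.071 and 0.073, and leaving out mouse 1 of Jrt;Sost-het to 0.22, and between 7 and 10 of the genes were above 0 when single mice were left out. Of the markers, 11 of 12 osteoblast genes (median 0.36), 6 of 8 osteocyte genes (0.39) and 7 of 7 erythroid genes (0.097) were also above 0, while 16 of 16 muscle genes (median -1.003), 7 of 7 chondrocyte genes (-1.72) and 8 of 8 osteoclast genes (-0.076) lay below 0. Chondrocyte markers summed to 3524 CPM in Jrt;Sost-het mouse 1 and to between 285 and 791 CPM in the other mice of its group. The part of these cells in the values of the 10 genes was not tested.

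Between Jrt;Sost-het and WT mice, in which the *Col1a1* allele, *Sost* dose and colony all differed, 7 of the 10 genes had a log2 fold change above 0, where 51.3% of 16775 genes did. The median was 0.098, with 0.0036 over all genes. *Fgf23*, *Slc20a1* and *Ank* were below 0. In edgeR the adjusted p was 0.99998 for each, and 0 of 10 were called, as were 0 of all genes (0%). An unadjusted p under 0.05 was found for 0 of 10, beside 2.14% of all genes, and DESeq2 and limma-voom likewise called 0. Without overlap 0.793% of all genes were higher and 0.703% lower in Jrt;Sost-het mice, against 0 of 10 here. The direction rested on single mice: without WT mouse 2 the median was -0.044 and 2 of 10 were above 0, without Jrt;Sost-het mouse 1 it was -0.060 with 3 above 0, without WT mouse 1 it was 0.036, and without WT mouse 4 it was 0.28. Without Jrt;Sost-het mouse 3 it was 0.18. Leaving out WT mice 3 and 4, which held epidermal RNA, gave 0.41 and a smallest adjusted p of 0.130 in edgeR. In that fit 4 of 10 had an unadjusted p under 0.05, beside 3408 of 17196 genes. Without WT mouse 4 alone it was 3 of 10, beside 1591 of 16934. Adipocyte markers had a median of 0.47, chondrocyte markers of 0.38, osteoblast markers of 0.21 and osteocyte markers of 0.066 in the same comparison. Chondrocyte markers summed to 2795 CPM in WT mouse 4 and to between 85.4 and 539 CPM in the other WT mice. The part of these cells was not tested.

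Jrt;Sost-ko against WT mice gave a log2 fold change above 0 for 7 of the 10 genes, where 49.1% of 17155 genes were above 0. This comparison shares its WT mice with the one before, so the values are not independent. The median was 0.25, with -0.0030 over all genes, and values ran from -0.23 (*Fgf23*) to 0.45 (*Smpd3*). The adjusted p was 0.9996 for each in edgeR, and 0 of 10 were called, where 0.00583% of all genes were. The count with an unadjusted p under 0.05 was 0 of 10, beside 3.89% of all genes. No gene of the 10 was without overlap, beside 1.31% of all genes higher and 1.04% lower in Jrt;Sost-ko. The median was 0.12 without WT mouse 2, 0.14 without Jrt;Sost-ko mouse 3 and 0.42 without WT mouse 4. Without WT mice 3 and 4 it was 0.51, with 7 of 10 at an unadjusted p under 0.05, beside 2224 of 17513 genes in that fit, and a smallest adjusted p of 0.294 in edgeR. Osteoblast, osteocyte and adipocyte markers had medians of 0.57, 0.53 and 0.40, chondrocyte markers of -1.24 and muscle markers of -0.93, and their part was not tested.

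**Figure D3:**
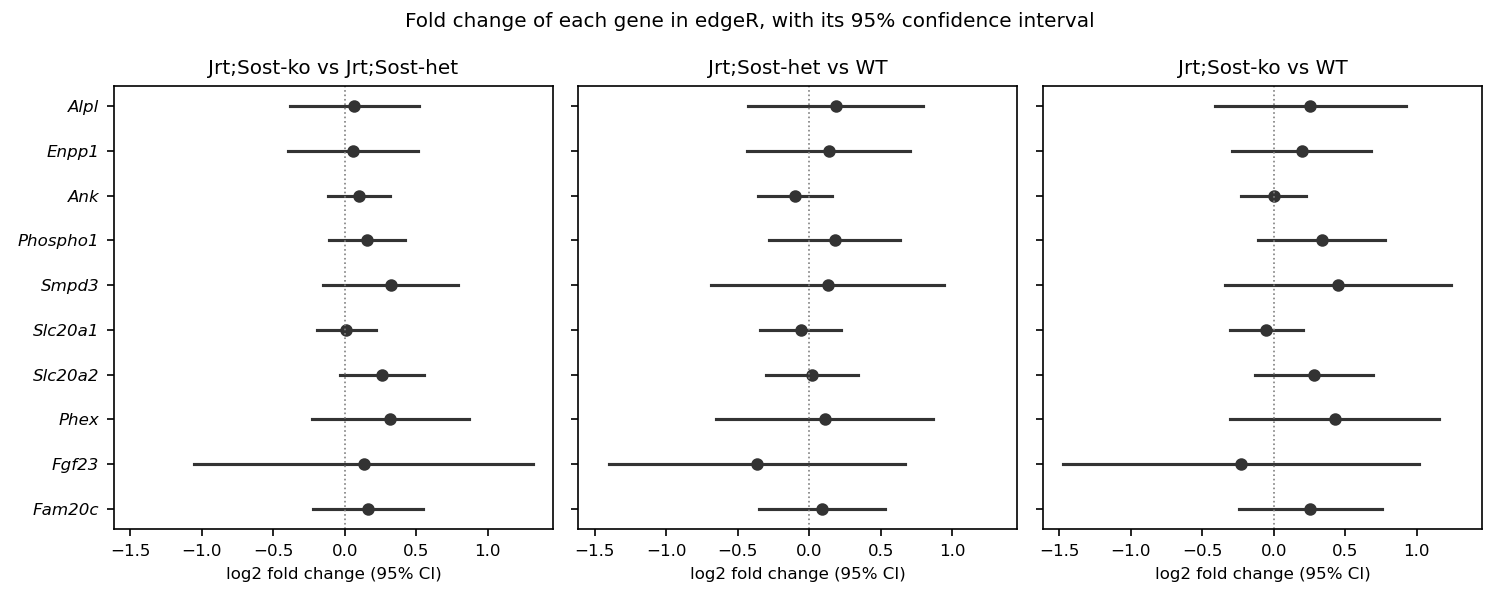
Log2 fold change (points) and 95% confidence interval (lines) of each gene in the 3 comparisons, from edgeR on 8 mice each. Every interval includes 0. Those of *Fgf23* are the widest, from -1.05 to 1.32 in Jrt;Sost-ko relative to Jrt;Sost-het, and those of *Ank* and *Slc20a1* the narrowest.

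Mice of one genotype differed among themselves. The SD of log2 CPM within groups was 0.50 for *Smpd3* and *Phex*, 0.41 for *Alpl*, 0.37 for *Enpp1*, 0.32 for *Fam20c*, 0.27 for *Phospho1* and 0.24 for *Slc20a2*, beside a median of 0.20 over 17245 genes. *Smpd3* and *Phex* varied more than 85.2% and 85.0% of genes. *Slc20a1* (0.18) and *Ank* (0.15) varied less than the median gene. *Fgf23* had the largest SD, 0.72, at counts where sampling error alone is large. WT mouse 2 was the lowest of all 12 for *Smpd3*, *Phex*, *Ank*, *Fam20c* and *Enpp1*, and WT mouse 4 the highest for *Smpd3*, *Phex* and *Ank*. The highest mouse was Jrt;Sost-ko mouse 3 for *Alpl*, *Phospho1* and *Slc20a2*.

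The mice that were high for one gene of mineralization tended to be high for the others. To set aside genotype, each value was taken as its deviation from the group mean on the log2 CPM scale, and Pearson's r over the 12 mice was tested by an exact two-sided permutation of mice within groups (13824 arrangements, smallest possible p 7.23e-05), with adjustment over all 45 pairs. Of the 45 pairs 20 had an adjusted p under 0.05. The share among pairs of other genes was not computed, so this count has no background beside it. *Phex*, *Alpl*, *Enpp1*, *Phospho1*, *Smpd3* and *Fam20c* formed 15 pairs, all positive, with r from 0.65 to 0.94, and 14 of them passed (10 by Spearman's rho). After leaving out the 2 mice most distant from the median of one gene of the pair, r ran from 0.59 to 0.95. The pairs were examined after the data were seen, and no rule set in advance picked the genes of these 15 pairs. The 14 passes therefore describe this choice of genes and do not test whether they form a group. *Phex* and *Enpp1* had r = 0.94 (rho = 0.96, exact permutation p = 0.00094, adjusted p = 0.00884), and r = 0.90 without WT mice 2 and 4, the farthest from the *Phex* median. *Smpd3* and *Phospho1*, consecutive enzymes of the same route, had r = 0.92 (rho = 0.87, exact permutation p = 0.0013, adjusted p = 0.00884), and r = 0.90 without WT mice 1 and 2. This was not particular to the pair, since *Smpd3* and *Alpl* had r = 0.93. The *Phospho1* count also depends on how reads of shared exons were assigned. *Ank* passed with *Phex* (r = 0.93), *Fam20c* (r = 0.91), *Enpp1* (r = 0.89) and *Smpd3* (r = 0.79), and not with *Alpl* (r = 0.68) or *Phospho1* (r = 0.61). These points share libraries and their scaling.

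The phosphate transporters ran opposite to each other. Between *Slc20a1* and *Slc20a2* r was -0.80 (rho = -0.79, exact permutation p = 0.00224, adjusted p = 0.0107), and -0.61 without WT mice 1 and 4, the 2 farthest from the median of *Slc20a1*. Of the other 8 genes, *Alpl* went with *Slc20a2* (r = 0.80, rho = 0.73, exact permutation p = 0.0107, adjusted p = 0.0291), whose rho had an adjusted p of 0.0634. *Fgf23* passed with no other gene.

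**Figure D4:**
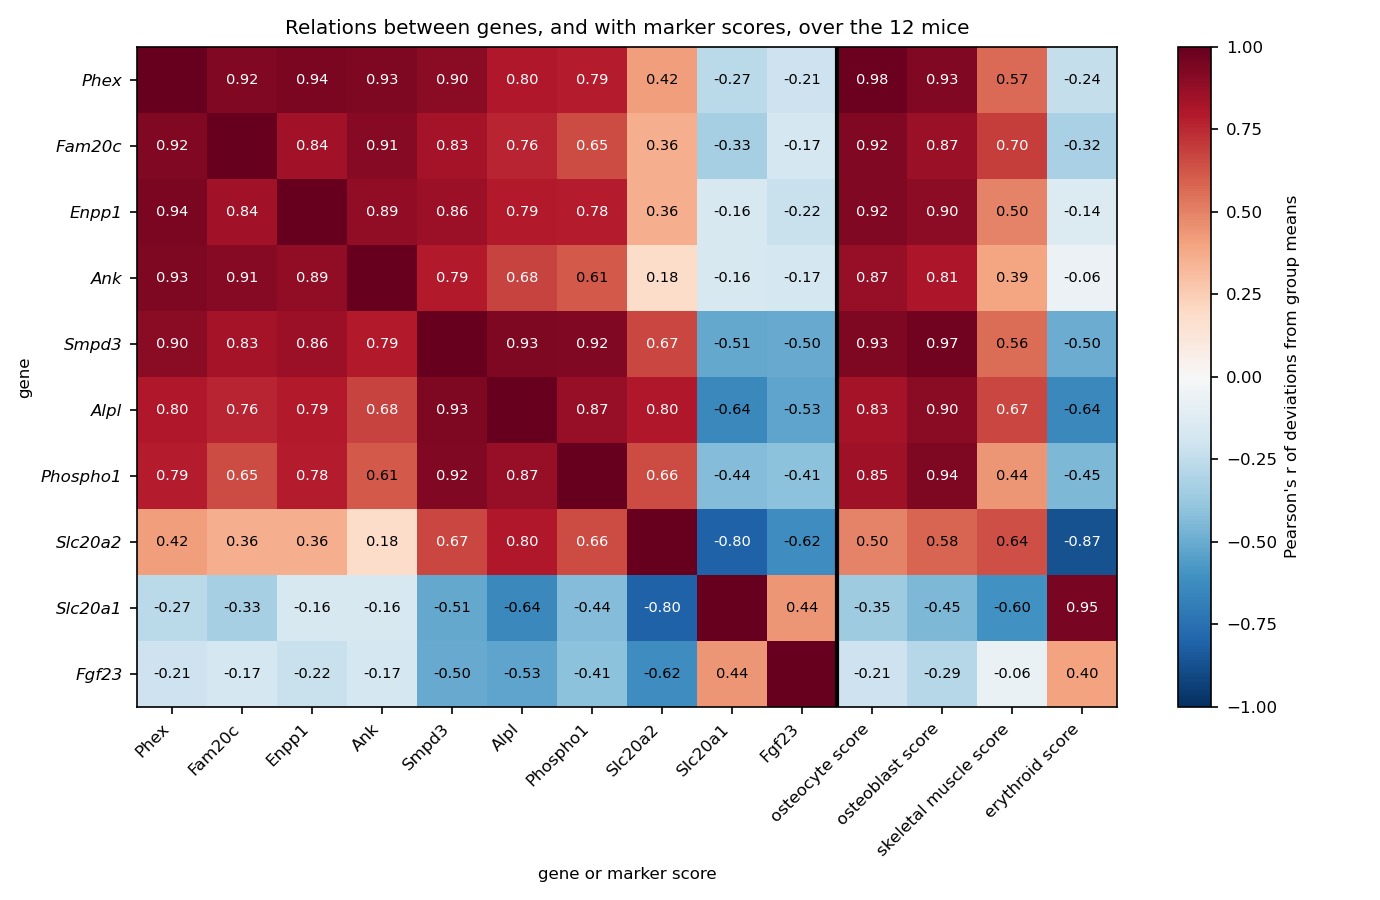
Pearson's r of deviations from group means of log2 CPM over 12 mice, between the genes (left of the black line) and with 4 marker scores (right), red for positive and blue for negative. *Phex*, *Fam20c*, *Enpp1*, *Ank*, *Smpd3*, *Alpl* and *Phospho1* form a red block, and *Slc20a1* stands against *Slc20a2* with r of -0.80.

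The same deviations were set against scores of cell types, each the mean log2 CPM of its markers, none of which is among the 10 genes. The 40 relations with 4 scores were adjusted together and 16 passed. The osteoblast and erythroid scores were chosen after the data were seen, so p-values with them are descriptive. The share of all genes that would pass with each score was not computed. The counts below are therefore not shown to be particular to the 10 genes. With the osteocyte score 7 of 10 passed: *Phex* had r = 0.98 (rho = 0.96, exact permutation p = 0.000145, adjusted p = 0.00193), followed by *Smpd3* (0.93), *Enpp1* (0.92), *Fam20c* (0.92), *Ank* (0.87), *Phospho1* (0.85) and *Alpl* (0.83). Without Jrt;Sost-ko mouse 2 and WT mouse 2, farthest from the median of the score, r stayed between 0.79 and 0.97 for these 7. The same 7 passed with the osteoblast score, highest for *Smpd3* (r = 0.97, rho = 0.95, exact permutation p = 0.000145, adjusted p = 0.00193) and *Phospho1* (r = 0.94, rho = 0.82, exact permutation p = 0.00188, adjusted p = 0.00627). Without WT mice 1 and 2 these were 0.94 and 0.91. *Phex* (0.93), *Alpl* (0.90), *Enpp1* (0.90), *Fam20c* (0.87) and *Ank* (0.81) followed. *Phex* and *Smpd3* each passed with both bone scores, which do not set these genes apart by cell type.

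*Slc20a1* and *Slc20a2* did not pass with either bone score, with r between -0.45 and 0.58, which does not exclude a relation. For *Slc20a2*, r with the osteocyte score was 0.50, and 0.74 without Jrt;Sost-ko mouse 2 and WT mouse 2. Its r with the osteoblast score was 0.58, and 0.41 without WT mice 1 and 2. For *Slc20a1* the values without these mice were -0.41 and 0.0071. Both transporters passed with the erythroid score (globins, *Alas2*, *Slc4a1* and *Epb42*), which was not set in advance, and were the only 2 of 10 to do so. *Slc20a1* had r = 0.95 (rho = 0.95, exact permutation p = 7.23e-05, the smallest possible, adjusted p = 0.00193), and *Slc20a2* r = -0.87 (rho = -0.80, exact permutation p = 0.000868, adjusted p = 0.00386). Without Jrt;Sost-het mouse 4 and WT mouse 1 these were 0.92 and -0.85. With the skeletal muscle score 0 of 10 passed by Pearson's r, and r ran from -0.60 (*Slc20a1*) to 0.70 (*Fam20c*). The unadjusted exact permutation p was under 0.05 for *Slc20a1* (0.0435) and *Fam20c* (0.0487). By rank, *Slc20a1* (rho = -0.76, exact permutation p = 0.0117, adjusted p = 0.0276) and *Slc20a2* (rho = 0.80, exact permutation p = 0.0143, adjusted p = 0.0318) did pass with the muscle score. Without Jrt;Sost-ko mouse 4 and WT mouse 2 their r was -0.88 and 0.81, values given without a test. By rank, *Slc20a1* ran with the erythroid score and against the muscle score, and *Slc20a2* the other way round. The parts of erythroid and muscle RNA were not told apart. *Fgf23* passed with no score.

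**Figure D5:**
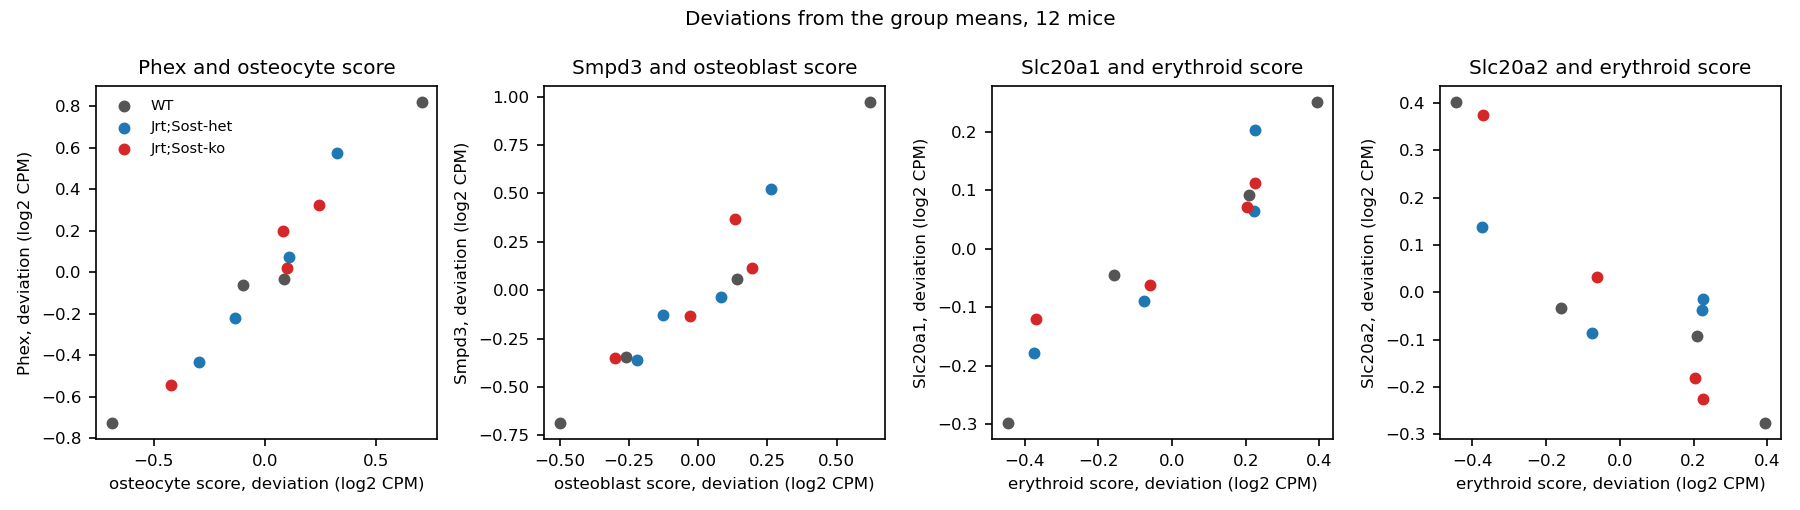
Deviation of a gene from its group mean (vertical, log2 CPM) against that of a marker score (horizontal, log2 CPM), 1 point per mouse, coloured by group. *Phex* with the osteocyte score (r = 0.98), *Smpd3* with the osteoblast score (r = 0.97) and *Slc20a1* with the erythroid score (r = 0.95) slope upwards, and *Slc20a2* with the erythroid score (r = -0.87) downwards.

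The genes most like each of the 10 were found by Pearson's r of log2 CPM over the 12 mice, among 17244 others, as a description without a test. Group means were kept in these values, unlike in the relations above. *Phex* was most like *Dmp1*, the osteocyte matrix phosphoprotein (r = 0.97), then *Car12* and *Slc39a14*, and *Fam20c* was most like *Tubb6*, *Slc39a14* and *Creb3l2*. *Alpl* was nearest to *Col6a1* (0.98), *Gna11* and *Col6a2*, *Smpd3* to the collagen gene *Col24a1* (0.99), *9130024F11Rik* and *Aldh1l2*, and *Phospho1* to *Mmp23* (0.98), *Gpr153* and the collagen prolyl hydroxylase gene *P4ha2*. *Slc20a1* was nearest to *Zcchc6* (0.98), *Eif2ak1*, the heme-regulated kinase of red cell precursors, and *Slc4a1*, the anion exchanger of red cells (0.97), which is itself in the erythroid score. *Enpp1* was nearest to *Ngef* (0.95), *Slc44a1* and *Glg1*. The named neighbours were not singular. Genes with r above 0.90 numbered 284 for *Smpd3*, 227 for *Alpl*, 161 for *Slc20a1* and 143 for *Phospho1*. They numbered 121 for *Phex*, 75 for *Fam20c* and 44 for *Enpp1*. For *Slc20a2* (*Sdr9c7*, *Tmem200a* and *Mmp17*) and *Ank* (*Lgr6*, *Myo1d* and *Senp5*) no gene exceeded 0.90, and for *Fgf23* only *Gfi1* did (0.94), ahead of *Edar* and *Gm9835*.

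Beyond the 10 genes, a list of 35 others of mineral and phosphate handling was examined. In Jrt;Sost-ko relative to Jrt;Sost-het 27 of them were tested and edgeR called 0, beside 0.00597% of all genes. Of the 27, 14 were above 0 and 13 below, where 50.4% of all genes were above 0, with a median log2 fold change of 0.0014. The 3 highest were *Mepe*, an osteocyte matrix glycoprotein (0.70, 95% confidence interval 0.23 to 1.17), *Dmp1* (0.59, -0.11 to 1.29) and *Bglap*, osteocalcin (0.46, 0.20 to 0.72). The 3 lowest were *Mgp*, the matrix Gla protein that inhibits calcification (-0.40, -1.04 to 0.23), *Fgfr3* (-0.22) and *Anxa6* (-0.14). An unadjusted p under 0.05 was found for 5 of 27, where 5.02% of all genes had one: *Mepe*, *Bglap*, *Bglap2* (0.35) and, named after their values were seen, *Sgms2*, a sphingomyelin synthase (0.38), and *Galnt3*, which protects FGF23 from cleavage (0.30). Their adjusted p in edgeR was 0.901. *Bglap* and *Bglap2* were the 2 of 27 without overlap, beside 1.64% of all genes higher in Jrt;Sost-ko. As near-identical neighbours they may share reads. *Mepe*, *Dmp1*, *Bglap* and *Bglap2* also belong to the bone marker lists above.

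The same list gave 0 called in both comparisons with WT, where edgeR called 0% (Jrt;Sost-het) and 0.00583% (Jrt;Sost-ko) of all genes. In Jrt;Sost-het against WT 21 of 27 were above 0, with a median of 0.091, from *Vdr*, the vitamin D receptor (0.40), *Fgfr3* (0.37) and *Bglap2* (0.27) to *Galnt3* (-0.087), *Xpr1*, the phosphate exporter (-0.080), and *Ppa2* (-0.052). In Jrt;Sost-ko against WT 22 of 28 were above 0, with a median of 0.14, from *Mepe* (0.76), *Bglap* (0.73) and *Dmp1* (0.67) to *Mgp* (-0.22), *Xpr1* (-0.078) and *Ppa2* (-0.076). Of all genes, 51.3% and 49.1% were above 0 in the same order. An unadjusted p under 0.05 in edgeR was found for 0 of 27 and 3 of 28, beside 2.14% and 3.89% of all genes. Without overlap were 0 of 27 against Jrt;Sost-het, beside 0.793% of all genes higher and 0.703% lower. In Jrt;Sost-ko against WT they were 2 of 28, *Bglap* and *Bglap2*, both higher, beside 1.31% of all genes higher and 1.04% lower.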

How the data were processed

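RNA of 12 tibia shafts (n = 4 mice per group) was measured by paired-end sequencing. STAR alignment to GRCm38 was done by the authors, who deposited a matrix of raw counts per Ensembl gene. The counting tool, its strand setting and the annotation release are not given in the sources used here. The authors' comparison tables (log2 fold changes, p-values, normalized counts) and the single-mouse count files, which repeat the matrix, were not used.

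For each comparison its 8 mice alone, with all genes, were fitted in edgeR 4.0.16 (R 4.3.3; filterByExpr, TMM, glmQLFit, glmQLFTest), p-values adjusted by Benjamini-Hochberg at a threshold of 0.05. CPM used TMM factors of all 12 libraries, and log2 CPM a prior count of 2. Exon lengths and positions came from GENCODE M21 (GRCm38), in which 98.8% of identifiers were found. DESeq2 1.42.0 and limma 3.58.1 served as alternatives. The functions were tested on simulated data. Replicates were separate mice.

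The 10 genes, the marker lists and the list of 35 were chosen with earlier results of these data known. An erythroid marker is not reported here and was left out of its list. Named were the 10 genes, the 3 highest and lowest of the list of 35 in each comparison, the 3 genes most like each of the 10, marker genes, *Sost* and *Col1a1*. The relations with the osteoblast and erythroid scores and between pairs, and leaving out WT mice 3 and 4, were chosen after the data were seen.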

Additional observations from a re-analysis of the deposited data

Results flagged for a closer look

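In 30 sets of 4 mice (10 genes in 3 groups), 2 held a mouse whose gap to its nearest neighbour took up most of the range in CPM, and chance flags about 1 set in 20. *Enpp1* in Jrt;Sost-ko mouse 4 was 38.6 CPM while the other 3 mice lay between 54.3 and 55.8 CPM, a gap of 0.913 of the range. *Ank* in Jrt;Sost-het mouse 1 was 155 CPM while the other 3 lay between 120 and 123 CPM, a gap of 0.929 of the range.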

How the results depend on the processing

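With every alternative run, 0 of the 10 genes were called, and 490 of 527 fold changes kept their direction. A filter of at least 10 counts in every mouse left out *Fgf23*, so 9 genes were tested there. Genes called over the whole table moved within the Jrt colony from 1 to 15 (DESeq2) and 0 (limma-voom, and muscle score as covariate), and between Jrt;Sost-ko and WT from 1 to 14 (DESeq2), 2 (limma-voom) and 2 (no filter). Leaving out single mice gave 0 to 3 (0 without Jrt;Sost-ko mouse 1, 3 or 4) in the first, 0 to 2 in the second and 0 to 0 between Jrt;Sost-het and WT. The cause was not tested. The median of the 10 genes ran from 0.071 to 0.22 (Jrt;Sost-ko relative to Jrt;Sost-het), -0.060 to 0.28 (Jrt;Sost-het against WT) and 0.12 to 0.42 (Jrt;Sost-ko against WT) without single mice, and was 0.41 and 0.51 in the comparisons with WT without WT mice 3 and 4. With the muscle score as covariate, 7 of 10 had an unadjusted p under 0.05 in Jrt;Sost-ko against WT (smallest adjusted p 0.379), beside 1888 of 17155 genes.

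Single mice moved many values by over 1.5 times, and some changed sign. In Jrt;Sost-ko relative to Jrt;Sost-het *Slc20a1* was -0.011 in limma-voom and -0.048 with the muscle covariate, and single mice gave -0.045 to 0.083, while *Fgf23* ran from -0.14 to 0.465, *Alpl* from -0.10 to 0.21 and *Enpp1* from -0.070 to 0.24. In Jrt;Sost-het against WT *Slc20a2* was -0.032 with the muscle covariate and *Ank* 0.010 without WT mice 3 and 4, and single mice gave -0.12 to 0.45 for *Phex*, -0.047 to 0.32 for *Enpp1*, -0.073 to 0.56 for *Smpd3*, -0.16 to 0.027 for *Slc20a1*, -0.066 to 0.17 for *Slc20a2* and -0.054 to 0.23 for *Fam20c*. In Jrt;Sost-ko against WT *Ank* was 0.059 in limma-voom, 0.048 with the covariate and 0.098 without WT mice 3 and 4, and single mice gave -0.068 to 0.064 for *Ank*, -0.50 to 0.13 for *Fgf23* and -0.14 to 0.037 for *Slc20a1*. Without the 2 mice farthest from the median muscle score, r with that score was -0.096 for *Phex*, -0.22 for *Enpp1*, -0.35 for *Ank* and -0.15 for *Fam20c*. With a prior count of 0.5 or DESeq2 size factors, 7 of 10 still passed with the osteocyte score. No paired analysis was possible because the mouse numbers only follow the order of the labels. With 4 mice per group and *Fgf23* at 4 to 33 counts, small differences were not detectable.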
